A study of Mus musculus with 6 samples.

Results

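A set of 10 genes known as markers of thalamic neurons, out of 38355 genes listed, was followed in RNA sequencing data of the mouse cerebral cortex. The set holds Shox2, Prkcd, Tcf7l2, Lef1, Plekhg1, Tnnt1, Zic1, Slc17a6, Synpo2 and Ramp3, each of which matched 1 identifier in the deposited counts. The genes were chosen by name, with earlier results on the same age comparison known, and the levels at the 2 ages are therefore given as a description, with no test. The question was whether the genes differ between the ages in the same proportion from sample to sample, as a varying amount of thalamic tissue in the dissected cortex would give.

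Polyadenylated RNA was sequenced from cortical hemispheres of wild-type C57BL/6 mice, an inbred strain with no added allele or agent, at 6 months (3 samples) and at 16 months (3 samples). Each age is described as 3 brains, and strain, housing and dissection are described alike for both groups. Whether each dissection took the same tissue is not known from these data. The younger mice are 6 months old by the sample labels, which are followed here, but 3 months old in the deposited housing text. No thalamic sample was part of the comparison, so that the thalamic level of a gene is not known from these data, and in bulk tissue a larger number of cells of a type and more RNA per cell cannot be told apart.

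The thalamus lies below the cortex and relays sensory and motor signals to it. Its relay neurons are glutamatergic and load their vesicles mainly with the transporter encoded by Slc17a6, whereas most excitatory neurons of the cortex use the related transporter encoded by Slc17a7. Many adult thalamic neurons keep the Wnt effector transcription factors Tcf7l2 and Lef1 and the kinase Prkcd, which are therefore used as markers of the thalamus, although none of these genes is restricted to it.

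The sequences in front of the genes are shown for the members with the largest relative difference between the ages (Shox2), the largest difference in level (Prkcd) and, next to Prkcd, the most even difference across the older samples (Synpo2), because 2 of the members encode TCF/LEF factors and Shox2 encodes a homeodomain factor. RefSeq start sites (GRCm38.p6) matched 10 of 10 members with 16 windows in all, each from 250 bases before to 50 bases after a start, and those below lie on the minus strand at chr3:66981722-66982021, chr14:30626159-30626458 and chr3:123236100-123236399. Capitals mark CTTTGA, the core of TCF/LEF sites, or TCAAAG on the other strand, and TAATTA, a core of homeodomain sites that reads the same on both strands.
Shox2: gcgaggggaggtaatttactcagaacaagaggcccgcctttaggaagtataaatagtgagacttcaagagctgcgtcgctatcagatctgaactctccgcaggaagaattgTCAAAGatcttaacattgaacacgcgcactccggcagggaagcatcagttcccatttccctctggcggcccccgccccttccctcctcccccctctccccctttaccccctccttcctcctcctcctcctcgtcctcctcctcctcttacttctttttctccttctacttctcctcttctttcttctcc
Prkcd: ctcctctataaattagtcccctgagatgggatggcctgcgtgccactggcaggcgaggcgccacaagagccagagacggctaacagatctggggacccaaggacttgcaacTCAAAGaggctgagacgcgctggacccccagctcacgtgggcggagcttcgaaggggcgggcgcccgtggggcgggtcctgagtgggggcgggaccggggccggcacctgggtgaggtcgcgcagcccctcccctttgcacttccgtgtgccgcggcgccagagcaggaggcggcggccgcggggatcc
Synpo2: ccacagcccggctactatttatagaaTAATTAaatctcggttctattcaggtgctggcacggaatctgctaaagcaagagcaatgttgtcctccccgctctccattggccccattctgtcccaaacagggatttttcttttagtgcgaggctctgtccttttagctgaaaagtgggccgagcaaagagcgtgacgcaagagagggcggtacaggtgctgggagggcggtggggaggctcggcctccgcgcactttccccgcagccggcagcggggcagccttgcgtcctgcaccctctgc

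The TCF/LEF core stood in 3 of the 16 windows, 1 each of Shox2, Prkcd and Lef1, and in 16.0% of all 32851 windows of the same length. In Shox2 and in Prkcd the match began at the same place, 139 bases before the start. The homeodomain core stood in 2 of the 16 windows, 1 each of Synpo2 and Slc17a6, and in 5.29% of all windows. These matches describe letters only, since no binding was measured.

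Before the values are given, the libraries need a word. Counts on genes summed to between 29797253 and 46519280 per sample, and 3 counts, the smallest level taken as measurable, corresponded to between 0.0645 and 0.101 counts per 1000000 (CPM), a limit that covers counting error only. Replicates 1 and 2 at 16 months stood apart from the other samples: relative to their age group's mean, their levels followed the GC content of genes with r = 0.59 and r = -0.58 across genes, whereas the other 4 samples lay between -0.13 and 0.16, and genes are not independent replicates. The median log2 fold change (16 over 6 months) over the 17120 genes tested was 0.0014, and all levels below are CPM after TMM scaling of library sizes. The tissue label was checked against its markers, and the 8 genes of cortical excitatory neurons, among them Slc17a7 and Tbr1, were all measured, with a summed level of 1455 to 1547 CPM at 6 months and 1472 to 1798 CPM at 16 months.

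All 10 members had a higher mean level at 16 months, by between 13% (Slc17a6) and 1567% (Shox2), and by at most 88.3% when Shox2 is set aside. In 9 of 10 members all 3 samples of 16 months lay above all 3 of 6 months, a pattern shown by 12.2% of all tested genes, and in 0 members all 3 lay below, as they did in 11.5% of tested genes. The median log2 fold change of the members was 0.46. In the comparison across all genes with edgeR's quasi-likelihood test, 7 of 10 members were among the genes called higher at a Benjamini-Hochberg adjusted p under 0.05 (Shox2, Prkcd, Tcf7l2, Plekhg1, Tnnt1, Synpo2 and Ramp3) and 0 among those called lower, where 0.783% of all tested genes were called higher and 0.888% lower (1.67% in all); since the members were chosen with this contrast known, nothing is read from the count. The count fell to 3 (Shox2, Prkcd and Synpo2) when any sample of 6 months or replicate 3 of 16 months was left out, while it was 8 without replicate 1 and 7 without replicate 2 of 16 months.

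**Figure D1:**
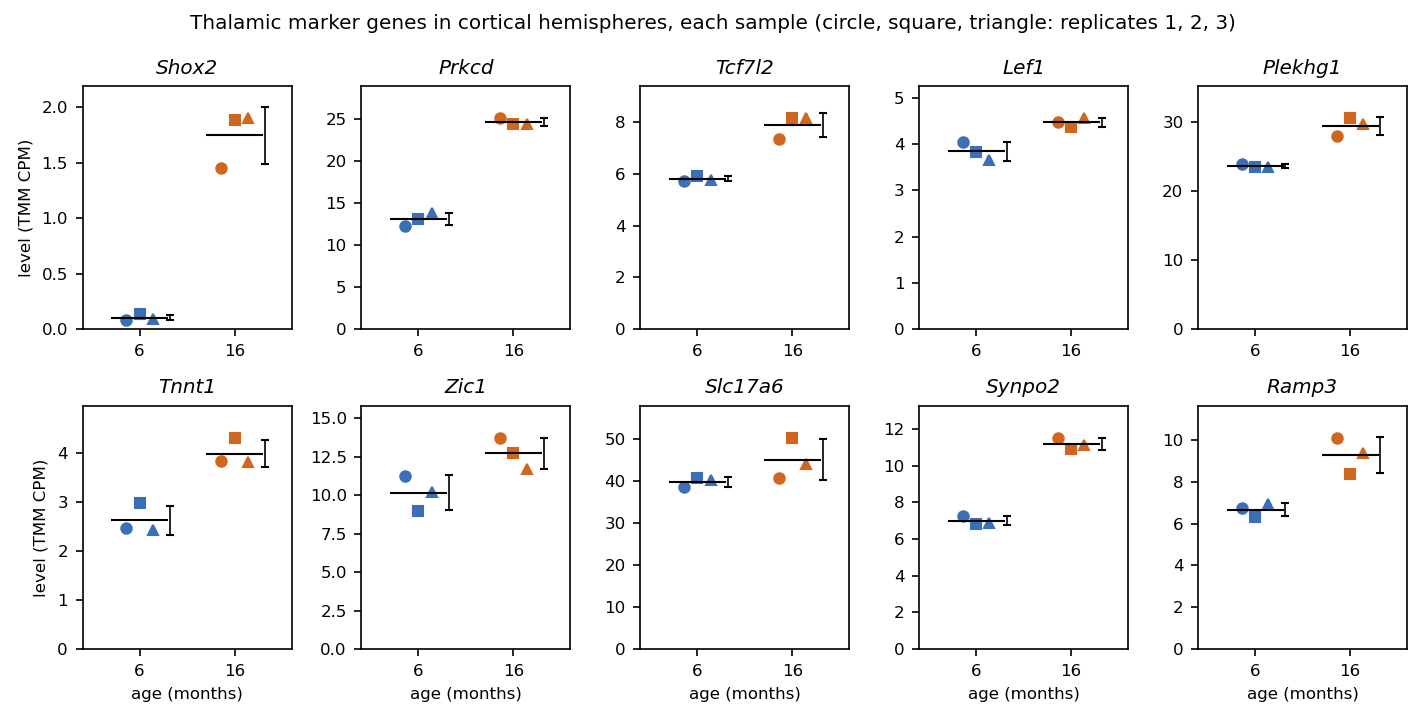
Level of each of the 10 genes in TMM-scaled counts per 1000000 (CPM, y axes from 0) in every sample at 6 months (blue) and 16 months (orange), with circle, square and triangle for replicates 1, 2 and 3, a line at the mean and a bar of 1 SD (n = 3). The samples of 16 months lie above those of 6 months in every panel but Slc17a6, where 40.6 CPM at 16 months lies below the highest value at 6 months, 40.8 CPM.

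Among the transcription factors, Shox2, a homeodomain protein, showed the largest relative difference, although its difference in level, 1.64 CPM, was below that of Zic1 (2.56 CPM) and Tcf7l2 (2.08 CPM). The gene (chromosome 3, 66971727 to 66981771, minus strand, GRCm38) had 4 counts in each of the 3 samples of 6 months and 48, 59 and 65 counts at 16 months. In CPM these were 0.0853, 0.133 and 0.0954 against 1.45, 1.88 and 1.90. It was thus just above the measurable level in the younger samples and plainly measured in each older one. The exact Poisson 95% interval of 4 counts runs from 1.09 to 10.2 counts, so that the ratio of the means, 16.7, and the log2 fold change of 4.06 (SE 0.27) rest on a base that is poorly known, whereas the interval of the lowest older sample, 35.4 to 63.6 counts, lies well above it. Of the exonic bases of Shox2, 153 (4.62%) are shared with Rsrc1, a splicing-related gene on the opposite strand, whose mean level was 59.4 CPM at 6 months and 55.2 CPM at 16 months (log2 fold change -0.11, adjusted p = 0.51, edgeR).

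Tcf7l2, the Wnt effector that marks most thalamic neurons, stood at 5.74, 5.93 and 5.77 CPM at 6 months. It stood at 7.36, 8.17 and 8.14 CPM at 16 months, with replicate 1 the lowest of the older samples and still above every younger one. The log2 fold change was 0.44 (SE 0.080). Lef1, its close relative, gave 4.05, 3.83 and 3.65 CPM at 6 months. At 16 months it gave 4.46, 4.37 and 4.57 CPM, a narrow gap between the ages and a log2 fold change of 0.21 (SE 0.091). The antisense gene Gm43352 covers 1208 exonic bases of Lef1 (13.7%) and was not among the counted genes, so that reads of the one cannot be told from reads of the other. The other TCF genes did not pass the test: Tcf7 had means of 4.84 and 3.88 CPM at 6 and 16 months (adjusted p = 0.16, edgeR) and Tcf7l1 of 2.56 and 2.69 CPM (adjusted p = 0.84). Of 7 Wnt target genes such as Axin2 and Notum, 6 were measured well enough to test, and 0 were called by edgeR or by DESeq2, with 1 at an unadjusted p under 0.05, which was lower and was also called lower after correction by offsets for GC and length, which are per-sample medians of genes binned by each (Rnf43, log2 fold change -0.35, adjusted p = 0.038, edgeR).

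Zic1, a zinc finger factor of the medial thalamus and other midline tissue, gave 11.3, 9.0 and 10.2 CPM at 6 months and 13.8, 12.7 and 11.7 CPM at 16 months. The lowest older sample was only slightly above the highest younger one, and the log2 fold change was 0.31 (SE 0.096). Its neighbour Zic4, which shares 60 exonic bases with it, had means of 3.18 and 2.91 CPM (log2 fold change -0.14, adjusted p = 0.74, edgeR). Of its relatives, Zic2 had a log2 fold change of -0.02 (adjusted p = 0.93, edgeR) and Zic5 of -0.29 (adjusted p = 0.27), and neither was called.

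Of the signalling genes, Prkcd, which encodes the delta isoform of protein kinase C, had the largest difference in level. It was counted 577, 395 and 578 times at 6 months and 834, 765 and 832 times at 16 months, which gave 12.3, 13.2 and 13.8 CPM against 25.2, 24.4 and 24.4 CPM. The 3 older samples differed by less than the 3 younger ones, and the means were 13.1 ± 0.738 and 24.6 ± 0.449 CPM (SD, n = 3 each). The log2 fold change was 0.91 (SE 0.065), and Prkcd (chromosome 14, 30595354 to 30626210, minus strand) shared no exonic base with another gene. None of the 8 other protein kinase C genes was called without offsets, although all but Prkcz had a log2 fold change above 0. Prkch, the nearest in size, had 0.27 (adjusted p = 0.17, edgeR) and Prkcq 0.24 (adjusted p = 0.15), while the abundant Prkcb stood at 522 and 540 CPM (0.05, adjusted p = 0.63). With the offsets for GC and length Prkce, Prkcq and Prkci were called higher (adjusted p = 0.029, 0.040 and 0.044, edgeR).

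Plekhg1, a guanine nucleotide exchange factor, gave 23.8, 23.4 and 23.4 CPM at 6 months and 28.0, 30.6 and 29.7 CPM at 16 months. The younger samples were nearly equal and the ages well separated (log2 fold change 0.32, SE 0.058). The related Plekhg2, Plekhg3 and Plekhg5 had log2 fold changes of -0.06, 0.01 and -0.02 and were not called. Ramp3, which escorts the calcitonin receptor family to the cell surface, gave 6.76, 6.30 and 6.91 CPM against 10.1, 8.36 and 9.37 CPM. Replicate 1 was its highest older sample and replicate 2 its lowest, and the log2 fold change was 0.48 (SE 0.089). The pseudogene Gm11978 shares 101 exonic bases (7.32%) with Ramp3 and had between 3 and 13 counts per sample. Ramp2 had a log2 fold change of 0.25 (adjusted p = 0.18, edgeR) and Ramp1 of -0.03 (adjusted p = 0.86).

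Slc17a6, the vesicular glutamate transporter of thalamic relay neurons, was the exception in which the ages overlapped. It gave 38.5, 40.8 and 40.2 CPM at 6 months and 40.6, 50.3 and 44.1 CPM at 16 months. Replicate 1 of 16 months lay within the younger range, and the log2 fold change of 0.18 (SE 0.077) moved between 0.09 and 0.25 when single samples were left out. Slc17a6 has the lowest GC content of the members (42.9% of its longest transcript), and with the offsets for GC and length its log2 fold change was 0.20. Slc17a7, the transporter of cortical excitatory neurons, had means of 976 ± 43.4 and 1091 ± 148 CPM (SD, n = 3 each; log2 fold change 0.16, adjusted p = 0.38, edgeR), and Slc17a8 had a log2 fold change of -0.14 (adjusted p = 0.59).

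In the genes of the cytoskeleton the ages were apart. Synpo2, an actin-binding protein, gave 7.27, 6.83 and 6.87 CPM at 6 months and 11.5, 10.9 and 11.1 CPM at 16 months. Each group was tight (means 6.99 ± 0.246 and 11.2 ± 0.328 CPM, SD, n = 3), and the log2 fold change was 0.67 (SE 0.071). Tnnt1, a troponin T otherwise known from slow muscle, gave 2.47, 2.97 and 2.43 CPM against 3.83, 4.31 and 3.81 CPM. Replicate 2 was its highest sample at either age, and the log2 fold change was 0.61 (SE 0.12). The related Tnnt2 had a log2 fold change of -0.39 (adjusted p = 0.092, edgeR), with all 3 older samples below the younger ones, and Synpo of 0.20 (adjusted p = 0.15). Tnnt3 and Synpo2l were too low to test. Over the 23 relatives tested, 0 were called by edgeR and 0 by DESeq2, and their median log2 fold change was 0.048. At an unadjusted p under 0.05 there were 6 higher and 3 lower, where 8.57% of all tested genes were higher and 8.88% lower. With the offsets for GC and length 6 of the relatives were called higher and 2 lower, where 7.37% and 6.83% of all tested genes were. The higher ones were Prkce, Prkcq and Prkci, Synpo (0.15, adjusted p = 0.0061, edgeR), Ramp2 (0.22, adjusted p = 0.033) and Slc17a7 (0.12, adjusted p = 0.048). The lower ones were Tnnt2 (-0.43, adjusted p = 0.0086, edgeR) and Tcf7 (-0.31, adjusted p = 0.040).

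Per length of exons, the order of levels at 6 months was Slc17a6 (7.38 CPM per kb), Ramp3 (4.83), Plekhg1 (2.7), Prkcd (2.36), Zic1 (1.79), Tnnt1 (1.19), Tcf7l2 (0.663), Synpo2 (0.534), Lef1 (0.437) and Shox2 (0.0316). No neighbours in this order overlapped over the 3 samples. At 16 months the level of Prkcd was 4.44 CPM per kb, above that of Plekhg1 at 3.36. Tcf7l2 (0.839 to 0.931 CPM per kb) and Synpo2 (0.831 to 0.880) then overlapped, as did Shox2 (0.437 to 0.575) and Lef1 (0.497 to 0.520), so that the order within these pairs is not given by the data. At 6 months Slc17a6, Ramp3, Plekhg1 and Prkcd were thus well measured in cortical tissue, while Shox2 alone was near the lowest measurable level.

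**Figure D2:**
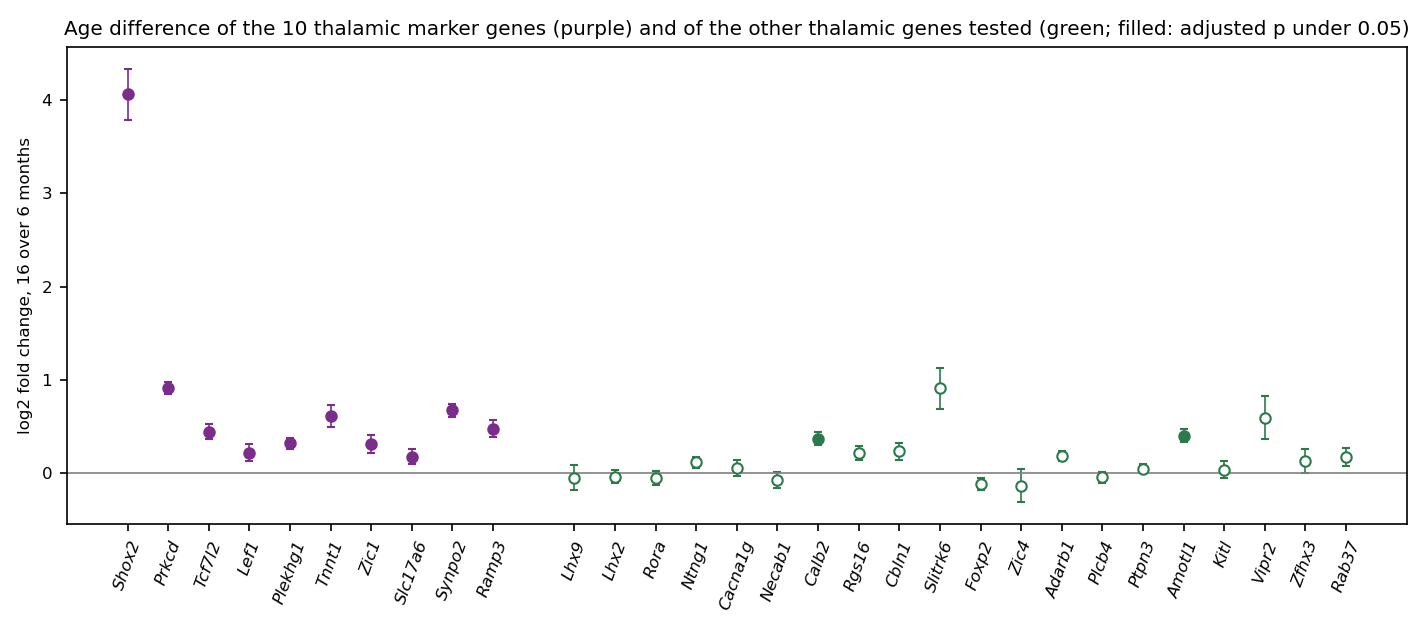
Log2 fold change (y axis, 16 over 6 months) with its standard error (bars) for the 10 genes (purple, shown without a test) and for the 20 other thalamic genes that could be tested (green, filled where the adjusted p is under 0.05). The purple points run from 0.18 for Slc17a6 to 4.06 for Shox2, all above 0, whereas 13 green points lie above 0 and 7 below.

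The share of the difference that fell to each older sample was then compared. For each gene, the level in a sample of 16 months minus the mean of 6 months was divided by the mean of these differences over the 3 samples, so that the 3 relative differences of a gene average 1 and a gene that follows a common source would show the same 3 values as every other gene of that source. For Prkcd they were 1.04, 0.980 and 0.976 in replicates 1, 2 and 3, with counting errors of 0.0614, 0.0618 and 0.0604. For Synpo2 they were 1.09, 0.931 and 0.983. In both genes the 3 older samples carried nearly equal differences, the highest exceeding the lowest by 0.0692 and 0.155.

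Shox2 gave 0.819, 1.08 and 1.10, with counting errors between 0.109 and 0.118. Tcf7l2 (0.746, 1.13 and 1.12) and Plekhg1 (0.753, 1.20 and 1.05) were likewise lowest in replicate 1. Ramp3 (1.32, 0.649 and 1.03) and Zic1 (1.40, 1.00 and 0.593) had the opposite tendency, with the highest value in replicate 1. Tnnt1 gave 0.889, 1.24 and 0.871, and in Lef1 (0.996, 0.844 and 1.16) the counting errors of 0.482 to 0.492 exceed the whole range. Slc17a6 was far from even, with 0.158, 2.02 and 0.819.

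Over the 10 genes the median of the highest minus the lowest relative difference was 0.379, with a range from 0.0692 (Prkcd) to 1.87 (Slc17a6), and 7 of 10 lay under 0.5. Replicate 1 was the highest of the 3 in 4 genes and the lowest in 4, replicate 2 the highest in 4 and the lowest in 3, and replicate 3 the highest in 2 and the lowest in 3. The medians over the genes were 0.942, 1.04 and 1.01 in replicates 1, 2 and 3, with SDs between genes of 0.348, 0.366 and 0.170. No replicate therefore carried more of the difference in all genes, and the spread was widest in the 2 samples whose levels followed GC content. Summed over the genes, the difference was 33.6, 43.3 and 36.0 CPM.

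After the offsets for GC and length, the 3 values of Slc17a6 were 0.841, 1.30 and 0.859 and those of Ramp3, the member with the highest GC content (55.4%), were 1.10, 0.837 and 1.06, much nearer to 1 than before. Prkcd stayed even (0.963, 1.06 and 0.974), and so did Synpo2 (1.14, 0.891 and 0.967). The values moved further apart in Zic1 (1.64, 0.770 and 0.590), Tnnt1 (0.765, 1.38 and 0.852) and Lef1 (1.24, 0.604 and 1.16). The median of the highest minus the lowest was 0.285, again with 7 of 10 under 0.5, the SDs between genes were 0.272, 0.240 and 0.167, and the summed differences were 36.5, 39.3 and 35.4 CPM. After the offsets, the highest exceeded the lowest by at most 0.29 in Prkcd, Synpo2, Shox2, Tcf7l2, Plekhg1 and Ramp3, and by 0.458 in Slc17a6, 0.617 in Tnnt1, 0.636 in Lef1 and 1.05 in Zic1. After the offsets, replicate 1 was the highest of the 3 in 4 genes and the lowest in 6. Replicate 2 was the highest in 4 and the lowest in 3, and replicate 3 the highest in 2 and the lowest in 1. The medians over the genes were 0.906, 1.07 and 0.998 in replicates 1, 2 and 3. Replicate 1 was the lowest in Shox2 and Tcf7l2, for example, and the highest in Synpo2 and Ramp3. Counting errors, computed before the offsets only, were 0.109 to 0.118 in Shox2 and 0.192 to 0.197 in Tcf7l2. They were 0.113 to 0.115 in Synpo2 and 0.165 to 0.173 in Ramp3. Some of the gaps between replicates are no larger than these errors, so that the order of the replicates in a gene is poorly known.

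**Figure D3:**
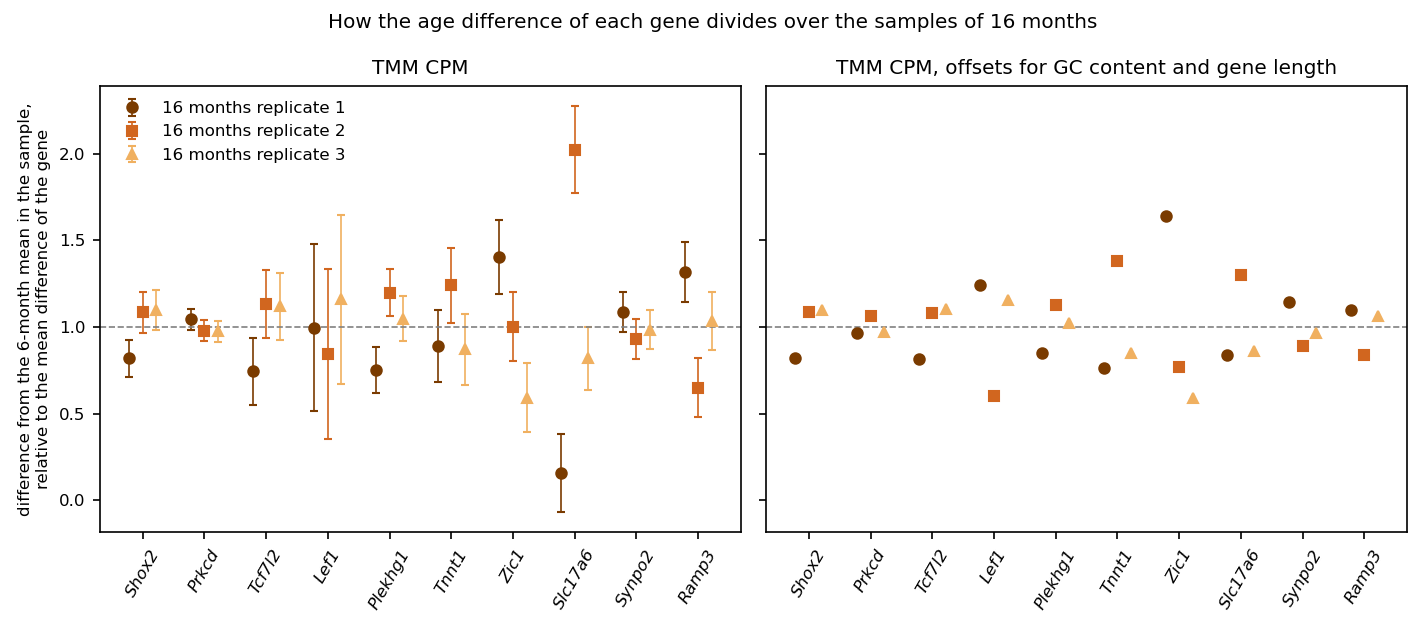
Difference of each sample of 16 months from the mean of 6 months, divided by the mean of the 3 differences of that gene (y axis, no unit; the dashed line at 1 is an equal share), for replicates 1, 2 and 3, with TMM-scaled levels and counting errors of 1 SE (left) and after the offsets for GC and length (right, without error bars). On the left Prkcd lies between 0.976 and 1.04 and Slc17a6 between 0.158 and 2.02, and on the right Slc17a6 lies between 0.841 and 1.30.

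As a percentage of the level at 6 months, the differences ranged from 13% to 88.3% in the 9 genes other than Shox2, whose 1567% rests on 4 counts per younger sample. In CPM the differences summed to 37.6, of which Prkcd held 30.7%, Plekhg1 15.5%, Slc17a6 13.8%, Synpo2 11.1% and the other 6 genes less than 7% each. As a fraction of the difference of Prkcd, that of Plekhg1 was 0.505, of Slc17a6 0.449, of Synpo2 0.361, of Ramp3 0.227, of Zic1 0.221, of Tcf7l2 0.180, of Shox2 0.142, of Tnnt1 0.117 and of Lef1 0.0539. Per length, the difference was 2.08 CPM per kb in Prkcd and 1.90 in Ramp3, against 0.960 in Slc17a6 and 0.0709 in Lef1. For an added tissue, these would be ratios of the excess of each gene over its level in cortex, not ratios of its levels in that tissue. No thalamic sample was at hand to compare them with.

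The other thalamic genes were a list of 21 taken for their known thalamic expression, on which the choice of the members did not rest. They were put through the same test. Since earlier results of these data were known when the list was chosen, its p-values are given as a description. Gbx2, a defining factor of the thalamus, was at 0.0853, 0.133 and 0.0477 CPM at 6 months and 0.0905, 0.160 and 0.146 CPM at 16 months, too low to test. Of the 20 tested, edgeR called 2 higher and 0 lower, where it called 0.783% of all tested genes higher and 0.888% lower. DESeq2 called the same numbers of the list, and 245 genes higher and 223 lower over all genes. At an unadjusted p under 0.05 (edgeR) there were 7 higher and 0 lower, where 8.57% of all tested genes were higher and 8.88% lower at that threshold. Amotl1, an angiomotin-like scaffold protein, rose from 34.8 ± 1.71 to 45.9 ± 3.41 CPM (SD, n = 3; log2 fold change 0.40, adjusted p = 0.022), and Calb2, which encodes the calcium-binding protein calretinin, rose from 11.7 ± 0.329 to 15.1 ± 1.01 CPM (log2 fold change 0.37, adjusted p = 0.035). Both calls were lost when any sample of 6 months or replicate 3 of 16 months was left out, with adjusted p between 0.083 and 0.16 for Amotl1 and between 0.15 and 0.19 for Calb2; over all alternatives the lowest were 0.00020 and 0.00043. The median log2 fold change of the 20 genes was 0.083, against 0.0014 over all genes, and their summed level was 1160 to 1179 CPM at 6 months and 1194 to 1234 CPM at 16 months.

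Of the transcription factors of the thalamus, Lhx9 had means of 3.19 and 3.12 CPM (log2 fold change -0.05, adjusted p = 0.88) and Rora, abundant also in cortex, of 143 and 138 CPM (-0.05, adjusted p = 0.74, edgeR). The adhesion molecule Ntng1 had a log2 fold change of 0.11 (adjusted p = 0.38), and Cacna1g, the calcium channel behind burst firing of relay neurons, of 0.05 (adjusted p = 0.79). With the offsets for GC and length 5 of the 20 genes were called higher and 0 lower, in a fit that called 7.37% of all tested genes higher and 6.83% lower: Amotl1 and Calb2, as before, Slitrk6 with a log2 fold change of 1.01 (adjusted p = 0.0026), Kitl with 0.14 (adjusted p = 0.012) and Adarb1 with 0.13 (adjusted p = 0.0063). Without the offsets, Slitrk6 had 0.91 (adjusted p = 0.076, edgeR), Adarb1 0.19 (adjusted p = 0.12) and Kitl 0.04 (adjusted p = 0.87), the last with overlapping ages. Calb2 divided over the older samples as 1.26, 0.677 and 1.06 and Amotl1 as 0.975, 0.706 and 1.32, neither of them as evenly as Prkcd. In genes called higher on the lists that follow, the highest value exceeded the lowest by 0.217 in Gpr17, 0.235 in Lct and 0.236 in Ttr. The excess was 0.277 in Penk, 0.293 in Pde10a, 0.324 in Nwd2, 0.330 in Six3, 0.417 in Dsp and 0.864 in C1ql2. Beside the median of 0.379 over the members, such evenness was thus not particular to the members.

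Genes of tissue next to the thalamus were read in the same way, and their p-values too are a description. In the habenula list Nwd2 was called, with means of 51.9 and 62.2 CPM (log2 fold change 0.26, adjusted p = 0.042, edgeR), a call lost without any sample of 6 months or replicate 3 of 16 months, with thinned counts and with upper quartile scaling (adjusted p 0.054 to 0.27; lowest over all alternatives 0.00034). In all, edgeR called 1 of the 4 habenular genes tested higher and 0 lower, where 0.783% and 0.888% of all tested genes were. Tac2 had a log2 fold change of -0.05 (adjusted p = 0.83, edgeR), Gpr151 of 0.29 (adjusted p = 0.69) and Chrna3 of 0.07 (adjusted p = 0.93). The defining habenular factor Pou4f1 was at 0.0302 to 0.146 CPM in all 6 samples and Chrnb4 at 0.0427 to 0.160 CPM. In the list of the thalamic reticular nucleus, the GABAergic shell of the thalamus, Six3 rose from 4.14 ± 0.0632 to 6.82 ± 0.454 CPM (SD, n = 3; log2 fold change 0.72, adjusted p = 0.0039), kept below 0.05 in all 15 alternatives (highest 0.044), and divided evenly over the older samples (1.04, 1.14 and 0.814). Spp1 of the same list fell from 14.0 ± 0.786 to 9.49 ± 0.858 CPM (log2 fold change -0.56, adjusted p = 0.013), a call lost in the same 4 settings (0.055 to 0.11; lowest over all alternatives 0.00013). Of the 3 genes of diencephalic astrocytes edgeR called 0 and DESeq2 1, with 2 higher at an unadjusted p under 0.05, and with the offsets for GC and length 2 were called higher (Slc6a11 and Agt) and 1 lower (Itih3): without them, Slc6a11 had a log2 fold change of 0.25 (adjusted p = 0.078), Agt of 0.28 (adjusted p = 0.14) and Itih3 of -0.14 (adjusted p = 0.30). Of all tested genes, 8.57% were higher at an unadjusted p under 0.05, and the offsets called 7.37% higher and 6.83% lower.

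Genes of the hypothalamus, which borders the thalamus below, were near the limit of measurement: 5 of 8, among them Hcrt, Pmch, Avp and Oxt, were too low to test, and the summed level of the list was 3.39 to 4.07 CPM at 6 months and 3.80 to 4.16 CPM at 16 months. The part of thalamic, habenular and other neighbouring tissue in the differences of the 10 genes was not tested.

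**Figure D4:**
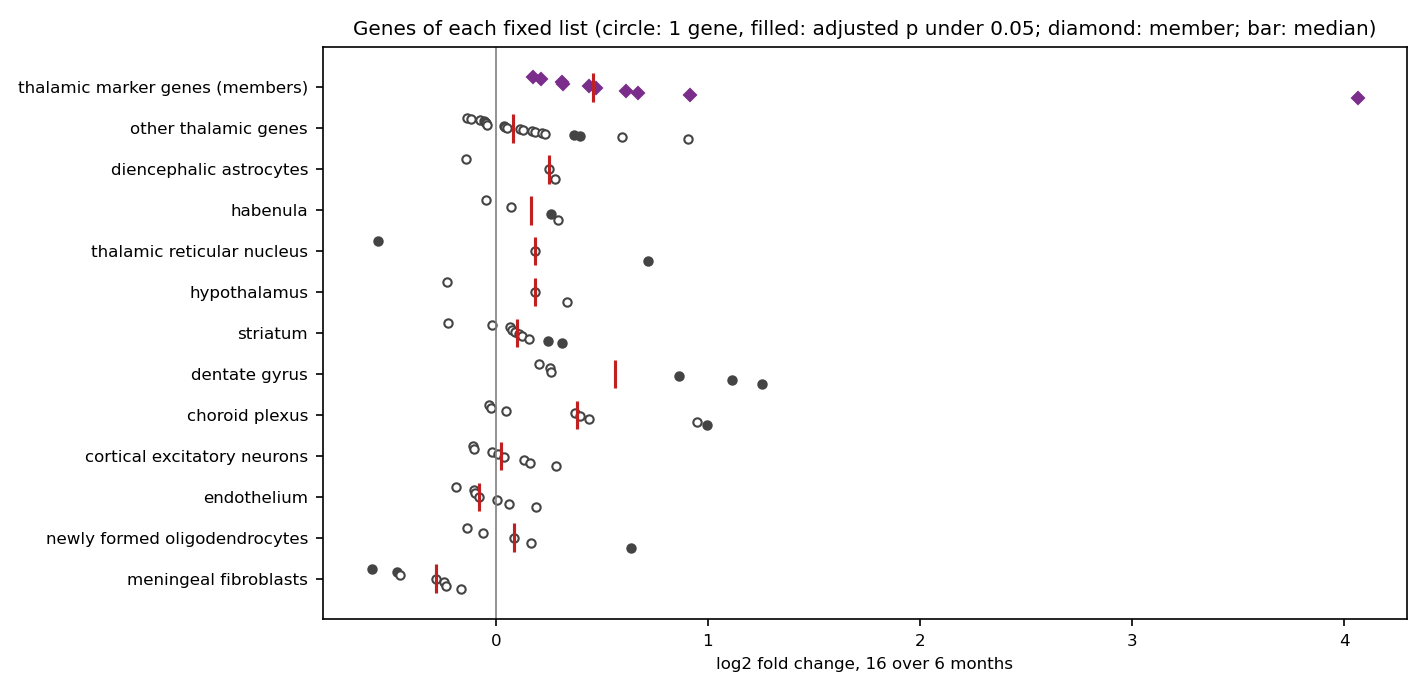
Log2 fold change (x axis, 16 over 6 months) of the genes of the lists shown, 1 symbol per gene, with the 10 thalamic marker genes as diamonds without a test, genes of other lists as circles (filled where the adjusted p is under 0.05) and a bar at the median of the list. The bar of the marker genes is at 0.46, that of the other thalamic genes at 0.083 and that of the cortical excitatory neurons at 0.024, and all 7 genes of meningeal fibroblasts lie below 0.

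Lists of other tissue that a dissection can include or leave out also held called genes. These lists were chosen with earlier results of these data known, so that their p-values are given as a description. In the dentate gyrus list all 6 genes had a log2 fold change above 0. With the offsets for GC and length 5 were called higher, where 7.37% of all tested genes were. Without the offsets edgeR called 3 of 6 higher and 0 lower, where 0.783% and 0.888% of all tested genes were called. The desmosome gene Dsp rose from 3.52 to 8.43 CPM (log2 fold change 1.26, adjusted p = 0.00067, edgeR), Lct from 3.03 to 6.60 CPM (1.12, adjusted p = 0.00067) and C1ql2 from 7.42 to 13.6 CPM (0.86, adjusted p = 0.013, lost in the 4 settings named for Amotl1 with 0.063 to 0.099; lowest over all alternatives 5.5e-07), and the summed level was 75.7 to 79.5 CPM at 6 months and 101 to 106 CPM at 16 months. All 7 genes of meningeal fibroblasts had a log2 fold change below 0, with a summed level of 109 to 114 CPM at 6 months and 84.5 to 85.8 CPM at 16 months; Igf2 fell (-0.46, adjusted p = 0.0025) and so did Ogn (-0.58, adjusted p = 0.020, lost in the same 4 settings with 0.094 to 0.14; lowest over all alternatives 0.00020). Their part in the differences of the 10 genes was not tested.

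The genes whose values over the 6 samples were nearest to those of Prkcd, by Euclidean distance of log2 CPM relative to the mean of 6 months among 14607 genes of at least 1 CPM, were Ttr (distance 0.228), Cd38 (0.234), Tnnc1 (0.312), Fam83d (0.318) and Hif3a (0.342), none of them on the thalamic lists. Ttr, the transthyretin gene of the choroid plexus, stood at 8.95 and 17.8 CPM, and Tnnc1, a troponin C, at 3.85 ± 0.141 and 6.58 ± 0.154 CPM (SD, n = 3). Shox2 had no near neighbour among the 14608 genes of at least 1 CPM. The nearest were Rn7sk (distance 3.81), Dsp (3.96), Lct (4.17), Top2a (4.19) and Plin4 (4.19). Genes with a mean under 1 CPM, as Shox2 itself had, were not compared, so that a near neighbour at its own level could not appear.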

How the data were processed

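Polyadenylated RNA of cortical hemispheres was sequenced in 3 samples of 6 and 3 of 16 months. The deposited values are the authors' raw counts, 1 whole number per Ensembl gene and sample, with no normalization, followed by summary lines in HTSeq's form that were left out. The methods name STAR alignment to mm10 and HTSeq, while the submitters' processing notes list CASAVA 1.8.2, STAR 2.3.0e and featureCounts 1.5.0-p1. The kit does not mark strand and the strand setting is not given in the sources used here, and reads of genes that overlap on opposite strands cannot be told apart.

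Identifiers were matched to GENCODE M21 (GRCm38) for 36602 of 38355 genes. Counts were fitted in edgeR 4.0.16 (R 4.3.3) with TMM scaling, the filterByExpr filter (17120 genes, all 10 members among them), age as the sole term and the quasi-likelihood test, with p-values adjusted by Benjamini-Hochberg over all genes tested and called at 0.05. With 3 samples per age, p-values set the age difference of a gene against the spread between these samples, estimated with help from the other genes. Counting errors of relative differences assume Poisson counts. Near-identical copies were sought with blastn 2.17.0 (97% identity over 100 bases) and, beyond the overlaps named, not found.

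The members, lists and tests were chosen with earlier results of these data known. Named are all members, relatives of members (not all are reported here) and overlapping genes; called genes of the other thalamic list (at most 10) with Gbx2, Lhx9, Rora, Ntng1 and Cacna1g; at most 3 called genes of each other list; and the 5 nearest profiles to Shox2 and to Prkcd. Slitrk6, Kitl, Adarb1, the habenular genes that were not called and genes given as examples of a list were added after their values were seen. Alternatives were other scalings, filters of none or of at least 10 counts, DESeq2 1.42.0, a replicate block, offsets for GC and then length (medians of 20 bins of genes), thinned counts and each sample left out.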

Additional observations from a re-analysis of the deposited data

How the results depend on the processing

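The 286 genes called over all genes became 648 with no filter, 468 with DESeq2's Wald test, 2431 with the offsets for GC and length, and 48 to 2211 when single samples were left out (2211 without replicate 2 and 995 without replicate 1 of 16 months). The members called higher (7) ranged from 3 to 8 when single samples were left out and from 6 to 9 in the other alternatives, and their median log2 fold change from 0.44 to 0.48. Each member's log2 fold change stayed above 0 in all its alternatives, 14 for Shox2, which a filter of at least 10 counts removes, and 15 for the others. The other thalamic genes called higher (2) became 5 with the offsets and 0 to 3 when single samples were left out, with medians of 0.053 to 0.14. The median of the highest minus the lowest relative difference (0.379) ranged from 0.224 to 0.406 when single samples were left out. Cacna1g changed sign with the offsets, with and without the block (-0.013 in both), and without replicate 1 of 16 months (-0.041), as did Rora without that sample (0.013; range without single samples -0.12 to 0.013), and Lhx9 with thinned counts (0.10) and without replicate 3 of 16 months (0.041; range -0.17 to 0.041); the cause was not tested. A fit that took the replicate number as a block called 783 genes, 8 members and 3 other thalamic genes among the higher, and with block and offsets 3322, 9 and 6. The labels do not say whether the numbers pair the samples. Deviations of same-numbered samples correlated with r = 0.18, 0.096 and 0.035 across genes, those of unlike-numbered samples with r from -0.13 to 0.038. Replicate 3 of 16 months was closest to replicate 2 of 6 months (0.038). With 3 samples per age these values cannot settle whether same-numbered samples shared a processing step, which was not tested. Depth limits Shox2 at 6 months and Gbx2, and fold changes of genes at few counts depend on the prior count.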

Other observations

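Further lists for other tissue and cells gave these values, with edgeR's quasi-likelihood test and adjustment over all genes. They too were chosen with earlier results of these data known, and their p-values are a description. In the striatum, below the cortex, 2 of 10 genes were called higher and 0 lower, where 0.783% and 0.888% of all tested genes were. Pde10a, a phosphodiesterase of medium spiny neurons, rose from 226 to 281 CPM (log2 fold change 0.31, adjusted p = 0.015) and Penk, the proenkephalin gene, from 119 to 141 CPM (0.25, adjusted p = 0.040). Drd1 and Drd2 had log2 fold changes of 0.07 and 0.16 (adjusted p = 0.64 and 0.36). Tac1, the gene of substance P, had means of 34.6 and 29.6 CPM (-0.23, adjusted p = 0.19) and was called lower with the offsets for GC and length (-0.19, adjusted p = 0.012), which called 6.83% of all genes lower. The calls of Pde10a and Penk were lost without any sample of 6 months or replicate 3 of 16 months, with adjusted p of 0.11 to 0.14 for Pde10a, and that of Penk also with upper quartile scaling (0.051 to 0.24); the lowest over all alternatives were 5.3e-06 and 2.8e-05. In the choroid plexus list Ttr alone of 8 tested genes was called (log2 fold change 1.00, adjusted p = 0.00034), and Clic6 had 0.40 (adjusted p = 0.14) and Otx2 0.95 at 0.133 to 0.483 CPM (adjusted p = 0.23), whereas Kl had means of 5.38 and 5.29 CPM (-0.02, adjusted p = 0.93), Kcnj13 -0.03 and Aqp1 0.05. Of the 5 genes of newly formed oligodendrocytes Gpr17, a receptor of differentiating oligodendrocyte precursors, rose from 38.2 ± 1.37 to 59.5 ± 2.47 CPM (SD, n = 3; 0.64, adjusted p = 0.00081), and Enpp6 and Bcas1 had -0.06 and -0.13 (adjusted p = 0.78 and 0.22), Bcas1 being called lower with the offsets (-0.16, adjusted p = 0.012).

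Of 8 genes of cortical excitatory neurons and 7 of endothelium edgeR called 0 and DESeq2 called 0, with 1 and 1 higher and 0 and 1 lower at an unadjusted p under 0.05, and the medians of the log2 fold change were 0.024 and -0.08. With the offsets, 2 of the 8 genes were called higher (Slc30a3 and Slc17a7) and 1 lower (Cux2), and 1 of the 7 higher (Ly6c1) and 2 lower (Cldn5 and Flt1). Of all tested genes, 8.57% were higher and 8.88% lower at an unadjusted p under 0.05, and the offsets called 7.37% higher and 6.83% lower. Of the 3 hypothalamic genes tested 0 were called by either tool and 0 had an unadjusted p under 0.05.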
